A study of Apis cerana with 9 samples.

Results

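The genes described here were the serine proteases and serpins in the proboscis of the eastern honey bee, *Apis cerana*. They were the 40 genes, of 12757 in the deposited table, whose description named a serine protease or proteinase, a trypsin or chymotrypsin (their inhibitors included), a serpin, or a proclotting enzyme. A further 3 genes matched these words but were left out because the description also named venom or the mitochondrion. By description, the 40 genes comprised 17 digestive-type proteases (trypsins, chymotrypsins and an elastase), 11 cascade proteases (named for snake, gd, nudel, stubble or the proclotting enzyme), 4 other serine proteases, 2 serpins and 6 other inhibitors. The table assigned the gene ontology term for serine-type endopeptidase activity to 30 of them and a term for inhibition of such enzymes to 2, both of them the serpins.

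Serine proteases cut other proteins with a catalytic serine. Trypsins and chymotrypsins of insects digest dietary protein. Proteases with a clip domain act one after another in the blood to trigger clotting, melanin formation and the Toll pathway. In *Drosophila*, snake, gd and nudel are steps of the cascade that patterns the embryo along its back and belly, and stubble shapes legs and bristles. Serpins trap such proteases irreversibly, and small chymotrypsin inhibitors block the active site and also occur in insect blood and secretions.

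The libraries came from the proboscis, the sucking mouthpart, of bees carrying rapeseed pollen (rapeseed), bees carrying pear pollen (pear) and bees without pollen (non-pollen), with 3 libraries each. The labels gave neither strain, age, colony nor collection day, and did not say whether libraries of a group were separate bees or pools. The p-values therefore measure the spread between samples only, part or all of which may be technical. The authors deposited whole-number counts and FPKM, which are fragments scaled by gene length and library total. Within a gene, levels are in CPM, a count relative to its library's total, after TMM scaling, which corrects those totals for differences in composition. Levels of different genes were compared in FPKM, except in sums and shares of CPM, which are not scaled by gene length.

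Total counts were 49085060 to 53518340 in the rapeseed libraries, 45447582 to 46167296 in the pear libraries and 43034759 to 64306245 in the non-pollen libraries. The 13 genes described as major royal jelly proteins, the main secretion of the head glands of nurse bees, took 0.264% to 0.301% of counts in rapeseed, 0.484% to 0.740% in pear and 32.1% to 32.4% in non-pollen libraries. When counts were scaled by library totals alone, the median log2 fold change of all tested genes was 0.47 in rapeseed and 0.53 in pear against non-pollen libraries. After TMM scaling it was -0.02 and -0.01. Under library totals, log2 fold changes of single genes against non-pollen libraries were thus higher by about the same amount than those given here. Of the 40 marker genes of the proboscis (cuticle proteins, taste receptors and mouthpart homeotic genes), 30 had counts in all 9 libraries and 1 had none. Their summed level was 5149 to 5205 CPM in rapeseed, 4616 to 5133 CPM in pear and 3398 to 3703 CPM in non-pollen libraries. Of the 23 tested, 13 were higher and 2 lower in rapeseed, and 11 higher and 4 lower in pear, than in non-pollen libraries. The mouthpart genes proboscipedia-like (LOC108000244) and deformed-like (LOC108000493) averaged 73.5, 67.5 and 46.0 CPM and 202, 172 and 212 CPM in the rapeseed, pear and non-pollen groups.

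A few genes carried most of the signal. FPKM are not corrected for composition, so the values here rank genes within a group, and changes between groups follow below in CPM. Trypsin 3A1 (LOC107993560) averaged 1486 ± 17.9 FPKM in the rapeseed, 1270 ± 9.88 FPKM in the pear and 684 ± 3.14 FPKM in the non-pollen group (SD, n = 3 each). It stood at rank 33, 42 and 57 of all 12757 genes. Antitrypsin-like (LOC108002405), a serpin, averaged 509 ± 7.19, 498 ± 24.3 and 321 ± 7.74 FPKM in the same groups (SD, n = 3 each), at rank 113, 116 and 129. The chymotrypsin inhibitor-like gene LOC107996293 averaged 95.7 ± 6.29 FPKM in rapeseed, 74.1 ± 12.5 FPKM in pear and 1667 ± 21.9 FPKM in non-pollen libraries (SD, n = 3 each), at rank 761, 994 and 21. Per length, the inhibitor was thus above trypsin 3A1 in the non-pollen group and far below it in both pollen groups. The other tested genes lay below 70 FPKM in every library.

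**Figure D1:**
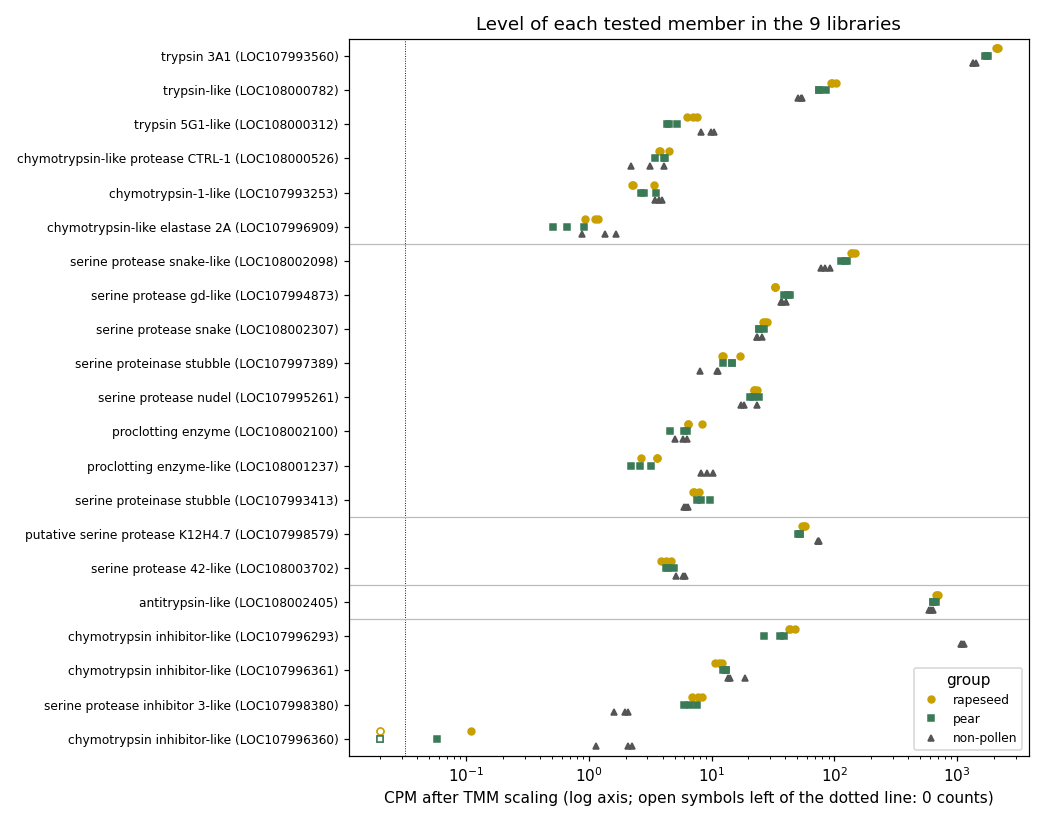
Level of the 21 tested genes in each of the 9 libraries, in CPM after TMM scaling on a log axis, 1 symbol per library. Grey lines separate the digestive-type, cascade and other serine proteases, the serpin and the other inhibitors; the widest gap between groups is that of LOC107996293, at 1076 to 1144 CPM in non-pollen and 26.7 to 48.0 CPM in pollen libraries.

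The 3 groups were compared in 1 fit with edgeR's quasi-likelihood test over 9259 genes. These had reached 1 FPKM in 3 or more libraries, and a gene was called at an adjusted p under 0.05. Of the 40 genes, 21 passed this filter, and LOC107996360 passed it only through the non-pollen group. In rapeseed against non-pollen libraries 6 were higher, 8 lower and 7 not called. This was 66.7% called, beside a background of 59.3% of all tested genes (29.3% higher, 30% lower). In pear against non-pollen libraries 7 were higher, 6 lower and 8 not called, or 61.9% called beside a background of 55.7% (28.5% higher, 27.2% lower). In rapeseed against pear libraries 5 were higher, 1 was lower and 15 were not called, or 28.6% called beside a background of 12.9% (7.94% higher, 4.96% lower). The groups did not overlap for 18, 14 and 11 of the 21 in these comparisons, beside 63.3%, 59.4% and 30.5% of all tested genes. The median log2 fold changes of the 21 were 0.16, 0.06 and 0.11 in these comparisons, against -0.02, -0.01 and -0.01 over all tested genes. LOC107996360 had to differ to pass the filter, and without it 7 of 20 genes were lower in rapeseed and 5 of 20 in pear.

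Most called changes were small. A called change of at least 2-fold against the non-pollen group was seen for 4 genes in rapeseed (1 higher, 3 lower) and for 5 in pear (1 higher, 4 lower), beside 7.27% and 6.42% of all tested genes. Without LOC107996360 these were 3 and 4 genes. In rapeseed against pear it was seen for 0 genes, beside 0.691%. No gene was called in opposite directions in the pollen groups against non-pollen libraries (0 of 21, beside 0.324% of all tested genes). However, gd-like (LOC107994873) became such a case without pear replicate 1. Both comparisons share the non-pollen libraries. The split into higher and lower depended on the scaling. With library totals alone 12 genes were higher and 3 lower in rapeseed. In pear 13 were higher, while proclotting enzyme-like LOC108001237, trypsin 5G1-like LOC108000312 and the inhibitors LOC107996293 and LOC107996360 stayed lower. Among all tested genes, 90.0% and 91.8% of calls were higher under that scaling, against 49.4% and 51.2% after TMM scaling.

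**Figure D2:**
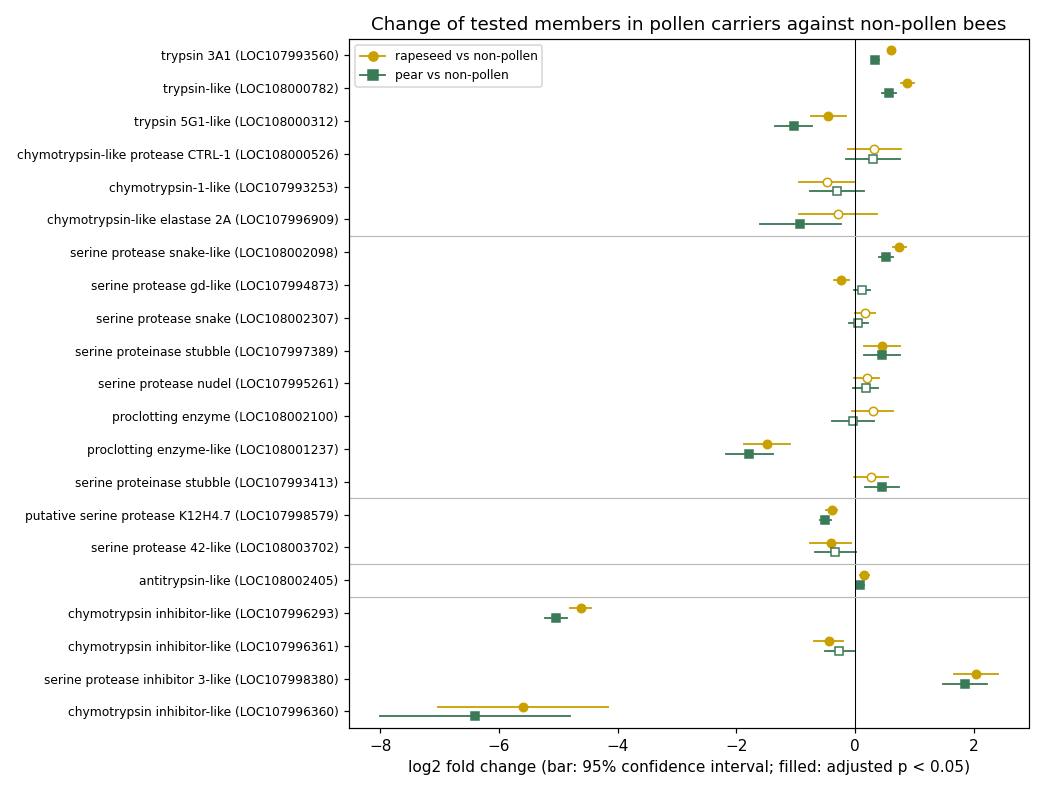
Log2 fold change of the 21 tested genes in rapeseed and in pear against non-pollen libraries, with 95% confidence intervals. Filled symbols have an adjusted p under 0.05 (edgeR); the inhibitors LOC107996293 and LOC107996360 lie far left and serine protease inhibitor 3-like far right.

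Among the digestive-type proteases, the abundant trypsins were highest in rapeseed, intermediate in pear and lowest in non-pollen libraries. Trypsin 3A1, on the minus strand of scaffold NW_016018134.1 from 169009 to 173528, is also described as the protease stubble, a name of the cascade group. It was placed with the digestive-type genes by its trypsin name. The counts and sums of both role groups depend on this choice. Coordinates are those of the deposited table, and the sources used here do not give its genome build. Its level was 2082, 2142 and 2111 CPM in rapeseed, 1702, 1760 and 1793 CPM in pear, and 1415, 1362 and 1361 CPM in non-pollen libraries. None of the 3 groups overlapped. The log2 fold change was 0.61 in rapeseed (standard error 0.0317, adjusted p = 4.4e-13) and 0.35 in pear (standard error 0.0316, adjusted p = 6.7e-09) against non-pollen libraries, and 0.27 in rapeseed against pear (standard error 0.0315, adjusted p = 2.39e-06). In these bulk samples, more RNA per cell and more cells that express a gene cannot be told apart.

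The trypsin-like gene LOC108000782 followed the same order. It had 94.2, 102.9 and 95.6 CPM in rapeseed, 85.3, 74.9 and 75.6 CPM in pear, and 53.8, 54.3 and 50.8 CPM in non-pollen libraries, again without overlap. Its log2 fold change was 0.88 in rapeseed (standard error 0.0549, adjusted p = 1.04e-11) and 0.57 in pear (standard error 0.0551, adjusted p = 1.51e-08) against non-pollen libraries, and 0.31 in rapeseed against pear (standard error 0.0536, adjusted p = 3.03e-04). It overlaps another gene of the table, as do 18 of the 40 genes in all. Whether counting used the strand is not given in the sources used here.

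Trypsin 5G1-like (LOC108000312) differed from these in that pear libraries were lowest. It had 7.67, 6.34 and 7.08 CPM in rapeseed, 4.52, 5.20 and 4.33 CPM in pear, and 8.28, 9.996 and 10.4 CPM in non-pollen libraries, with no overlap. The log2 fold change was -1.03 in pear (standard error 0.148, adjusted p = 4.4e-06) and -0.45 in rapeseed (standard error 0.144, adjusted p = 0.0113) against non-pollen libraries, and 0.59 in rapeseed against pear (standard error 0.147, adjusted p = 0.00961). The rapeseed call turned to 0.04 under scaling by library totals (adjusted p = 0.8) and was lost without rapeseed replicate 2 or non-pollen replicate 3 (-0.38 both times, adjusted p = 0.0544 and 0.0582). The difference between the pollen groups was lost without rapeseed replicate 1 (0.52, adjusted p = 0.0576).

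The 3 other tested enzymes of this kind had few counts. Chymotrypsin-like elastase family member 2A (LOC107996909) had 53 to 67 counts in rapeseed, 27 to 47 counts in pear and 29 to 86 counts in non-pollen libraries. Its call in pear (log2 fold change -0.92, standard error 0.33, adjusted p = 0.023) was made although these groups overlapped. It was lost without a filter on low values (adjusted p = 0.063) and without pear replicate 1 or 2 or non-pollen replicate 2 or 3 (adjusted p from 0.0516 to 0.128). Chymotrypsin-1-like (LOC107993253) was not called, with log2 fold changes of -0.48 in rapeseed (95% interval -0.94 to -0.02) and -0.31 in pear (-0.76 to 0.15) against non-pollen libraries. Chymotrypsin-like protease CTRL-1 (LOC108000526) was not called either, with 0.33 in rapeseed (-0.12 to 0.78) and 0.31 in pear (-0.15 to 0.76). It was called under scaling by library totals (0.81 and 0.84, adjusted p = 0.00258 and 0.00197), in both limma fits, and in rapeseed without non-pollen replicate 2 (0.56, adjusted p = 0.0469).

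Summed over all 17 digestive-type genes, the level was 2195 to 2261 CPM in rapeseed, 1803 to 1884 CPM in pear and 1434 to 1487 CPM in non-pollen libraries. Trypsin 3A1 made up 94.8%, 94.9% and 94.9% of this sum in the rapeseed, pear and non-pollen groups. The 15 genes other than trypsin 3A1 and LOC108000782 summed to 16.2 to 18.9 CPM in rapeseed, 15.9 to 16.6 CPM in pear and 18.1 to 23.0 CPM in non-pollen libraries, so the order of the sum was that of these 2 trypsins. Of the 6 tested, 2 were higher and 1 lower in rapeseed and 2 higher and 2 lower in pear against non-pollen libraries, or 50% and 66.7% called beside 59.3% and 55.7% of all tested genes. In rapeseed against pear, 3 were higher and 0 lower (50% called, beside 12.9%), and these were the 3 trypsins. The marker list of the gut lining (9 genes described as peritrophins, a related cuticle protein and maltases, 8 of them with counts in all 9 libraries) moved in the same order, with summed levels of 526 to 535 CPM in rapeseed, 478 to 500 CPM in pear and 331 to 336 CPM in non-pollen libraries. Maltases made up most of that sum. Of the 5 tested, 3 were higher and 0 lower in rapeseed, and 3 higher and 1 lower in pear. The 4 genes described as peritrophin-1 or peritrophin-44, proteins of the gut's inner sheath, did not have the order of the sum. Peritrophin-44-like (LOC108001107) averaged 8.03, 6.98 and 9.79 CPM in the rapeseed, pear and non-pollen groups. LOC107995392, LOC108001902 and LOC108002017 averaged below 1 CPM in every group, with LOC108002017 at 0 in 2 libraries. The part of gut tissue in the trypsin levels was not tested.

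**Figure D3:**
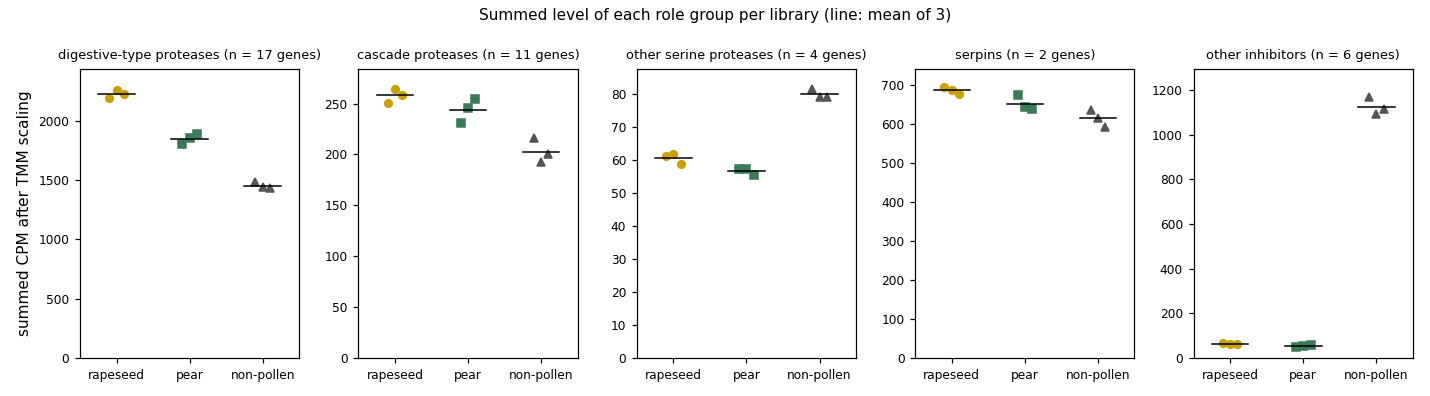
Summed level of each role group in CPM after TMM scaling, 1 symbol per library, with the mean of 3 as a line and each axis starting at 0. The digestive-type sum, most of it trypsin 3A1, is highest in rapeseed and lowest in non-pollen libraries, while the other inhibitors are at 61.6 to 68.0, 46.6 to 59.5 and 1094 to 1167 CPM.

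Among the cascade proteases, 2 were higher and 2 lower in rapeseed, and 3 higher and 1 lower in pear against non-pollen libraries, of 8 tested. This was 50% called in each comparison, near the 59.3% and 55.7% of all tested genes. The most abundant was serine protease snake-like (LOC108002098), on the plus strand of scaffold NW_016019663.1 from 2297572 to 2302659, which the table places in the Toll and Imd immune pathway. It had 137.8, 148.4 and 138.8 CPM in rapeseed, 113.8, 123.4 and 126.1 CPM in pear, and 91.5, 78.1 and 83.9 CPM in non-pollen libraries. The groups did not overlap. The log2 fold change was 0.75 in rapeseed (standard error 0.0536, adjusted p = 1.08e-10) and 0.52 in pear (standard error 0.0538, adjusted p = 4.19e-08) against non-pollen libraries. Between rapeseed and pear it was 0.23 (standard error 0.0526, adjusted p = 0.0055), a call that limma on log2(FPKM + 0.1) did not make (0.18, adjusted p = 0.0513).

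Serine protease gd-like (LOC107994873), named after a protease upstream of snake in *Drosophila*, went the other way between the pollen groups. It had 32.8, 32.7 and 32.9 CPM in rapeseed, 39.2, 42.1 and 44.0 CPM in pear, and 40.4, 37.8 and 37.1 CPM in non-pollen libraries. The rapeseed libraries lay below all others, and pear and non-pollen libraries overlapped. The log2 fold change was -0.35 in rapeseed against pear (standard error 0.0624, adjusted p = 4.58e-04), and no other of the 21 genes was called lower there. Against non-pollen libraries it was -0.23 in rapeseed (standard error 0.063, adjusted p = 0.00405), which turned to 0.26 under scaling by library totals (adjusted p = 5.15e-04). In pear it was 0.12 (standard error 0.0627, adjusted p = 0.104), which passed the threshold without pear replicate 1 (0.17, adjusted p = 0.0431).

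The proclotting enzyme-like gene LOC108001237 had the largest change of the 8 tested cascade proteases. In horseshoe crabs the proclotting enzyme, once activated, starts the gelling of blood. LOC108001237 had 2.68, 3.58 and 3.62 CPM in rapeseed, 2.21, 3.20 and 2.62 CPM in pear, and 10.3, 9.18 and 8.21 CPM in non-pollen libraries. All 6 pollen libraries lay below all non-pollen ones. The log2 fold changes were -1.48 in rapeseed (standard error 0.187, adjusted p = 7.12e-07) and -1.78 in pear (standard error 0.19, adjusted p = 7.33e-08). Rapeseed against pear gave 0.30 (95% interval -0.10 to 0.70, adjusted p = 0.372). The other proclotting enzyme gene that was tested, LOC108002100, was not called, with 0.30 in rapeseed (adjusted p = 0.135) and -0.03 in pear (adjusted p = 0.876). The pear value was 0.50 under scaling by library totals (adjusted p = 0.0116).

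Both tested cascade genes named after the membrane protease stubble had all pollen libraries above all non-pollen ones, but their calls were lost without single libraries. Trypsin 3A1, also described as stubble, kept its calls in all 9 fits that left out 1 library. Stubble LOC107993413 had 7.92, 7.06 and 7.24 CPM in rapeseed, 7.66, 8.13 and 9.65 CPM in pear, and 5.93, 6.41 and 6.14 CPM in non-pollen libraries. Its log2 fold change of 0.46 in pear (standard error 0.137, adjusted p = 0.0076) was not called without pear replicate 3 (0.36, adjusted p = 0.0526). Stubble LOC107997389, also described as a mucin, had 12.3, 12.1 and 17.2 CPM in rapeseed, 14.7, 12.4 and 14.6 CPM in pear, and 11.1, 8.01 and 11.3 CPM in non-pollen libraries. Its log2 fold changes of 0.45 in rapeseed (standard error 0.144, adjusted p = 0.0103) and 0.46 in pear (standard error 0.144, adjusted p = 0.0108) were both lost without non-pollen replicate 2 (0.30 and 0.31, adjusted p = 0.0831 and 0.0849). The rapeseed call was also lost without rapeseed replicate 3 (0.27, adjusted p = 0.113).

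Nudel and the second snake gene were not called in any comparison. Nudel (LOC107995261) had log2 fold changes of 0.20 in rapeseed (95% interval -0.01 to 0.41) and 0.18 in pear (-0.03 to 0.39) against non-pollen libraries. Both passed the threshold without non-pollen replicate 1 (0.34 and 0.32, adjusted p = 0.00278 and 0.00481). Snake (LOC108002307) had 0.17 in rapeseed (0.01 to 0.33, adjusted p = 0.0672) and 0.06 in pear (-0.11 to 0.22). The rapeseed value passed the threshold with DESeq2 (0.18, adjusted p = 0.0404) and without non-pollen replicate 3 (0.22, adjusted p = 0.0285). Both genes were called in both groups under scaling by library totals, at 0.69 and 0.72 for nudel and 0.66 and 0.59 for snake. The summed level of all 11 cascade genes was 251 to 265 CPM in rapeseed, 231 to 255 CPM in pear and 192 to 216 CPM in non-pollen libraries. The hemocyte list marks the blood cells that make several cascade proteins, but also holds metalloproteases of the disintegrin family. Of its 38 genes, 35 had counts in all 9 libraries, with summed levels of 1465 to 1490, 1391 to 1419 and 1422 to 1478 CPM in the rapeseed, pear and non-pollen groups. Of the 25 tested, 12 were higher and 8 lower in rapeseed, and 11 higher and 8 lower in pear, than in non-pollen libraries. Hemocytin (LOC108001681) averaged 50.5, 54.8 and 69.2 CPM and integrin alpha-PS2-like (LOC108004014) 201, 208 and 147 CPM in the rapeseed, pear and non-pollen groups. The part of blood cells in the protease levels was not tested.

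Of the 4 other serine proteases 2 were tested, and both were called lower in rapeseed and 1 of them in pear. This was 100% and 50% called, beside 59.3% and 55.7% of all tested genes. These calls were not made when counts were scaled by library totals. Putative serine protease K12H4.7 (LOC107998579), a gene named after a worm protein, had 56.4, 57.6 and 54.3 CPM in rapeseed, 52.4, 53.0 and 51.1 CPM in pear, and 74.6, 73.5 and 73.3 CPM in non-pollen libraries, which lay above all pollen libraries. The log2 fold change was -0.40 in rapeseed (standard error 0.0464, adjusted p = 2.62e-07) and -0.50 in pear (standard error 0.0467, adjusted p = 8.86e-09) against non-pollen libraries. Under scaling by library totals it was 0.10 and 0.04 (adjusted p = 0.0761 and 0.51). Limma on log2(FPKM + 1) and log2(FPKM + 0.1) called LOC107998579 higher in rapeseed (0.10 and 0.11, adjusted p = 0.0472 and 0.0468). Serine protease 42-like (LOC108003702) had 4.67, 3.87 and 4.29 CPM in rapeseed, 4.92, 4.23 and 4.45 CPM in pear, and 6.11, 5.16 and 5.83 CPM in non-pollen libraries. Its call in rapeseed (log2 fold change -0.41, standard error 0.168, adjusted p = 0.0402) was kept in 5 of the 9 fits that left out 1 library, and the value was 0.08 under scaling by library totals (adjusted p = 0.663). In pear it was not called (-0.33, adjusted p = 0.102).

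The serpin antitrypsin-like (LOC108002405) was abundant and differed little between groups after TMM scaling. It had 694.9, 686.4 and 677.2 CPM in rapeseed, 673.9, 642.5 and 639.6 CPM in pear, and 637.1, 614.1 and 592.3 CPM in non-pollen libraries. The groups did not overlap but were close. The log2 fold changes were 0.16 in rapeseed (standard error 0.034, adjusted p = 4.18e-04) and 0.09 in pear (standard error 0.034, adjusted p = 0.0378) against non-pollen libraries and 0.07 in rapeseed against pear (95% interval 0.00 to 0.14, adjusted p = 0.179). The call in pear was kept in 2 of the 9 fits that left out 1 library, and was lost with only the groups compared (0.09, adjusted p = 0.0683). Under scaling by library totals the values were 0.65 in rapeseed and 0.62 in pear (adjusted p = 5.45e-13 and 1.17e-12), so the size of the difference depended on the scaling. The fat body list (8 vitellogenin, hexamerin and apolipophorin genes, all with counts in all 9 libraries) had summed levels of 1026 to 1055, 1018 to 1098 and 1305 to 1435 CPM in the rapeseed, pear and non-pollen groups. Their share of counts was 0.114% to 0.117%, 0.118% to 0.122% and 0.104% to 0.111%. Of the 4 tested, 2 were higher and 2 lower in rapeseed, and 1 higher and 2 lower in pear. The part of fat body in the serpin's level was not tested. The other serpin, serine protease inhibitor 27A (LOC108003485), is named after a *Drosophila* serpin that restrains melanin formation. At 4 to 38 counts in a library, it was not tested.

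**Figure D4:**
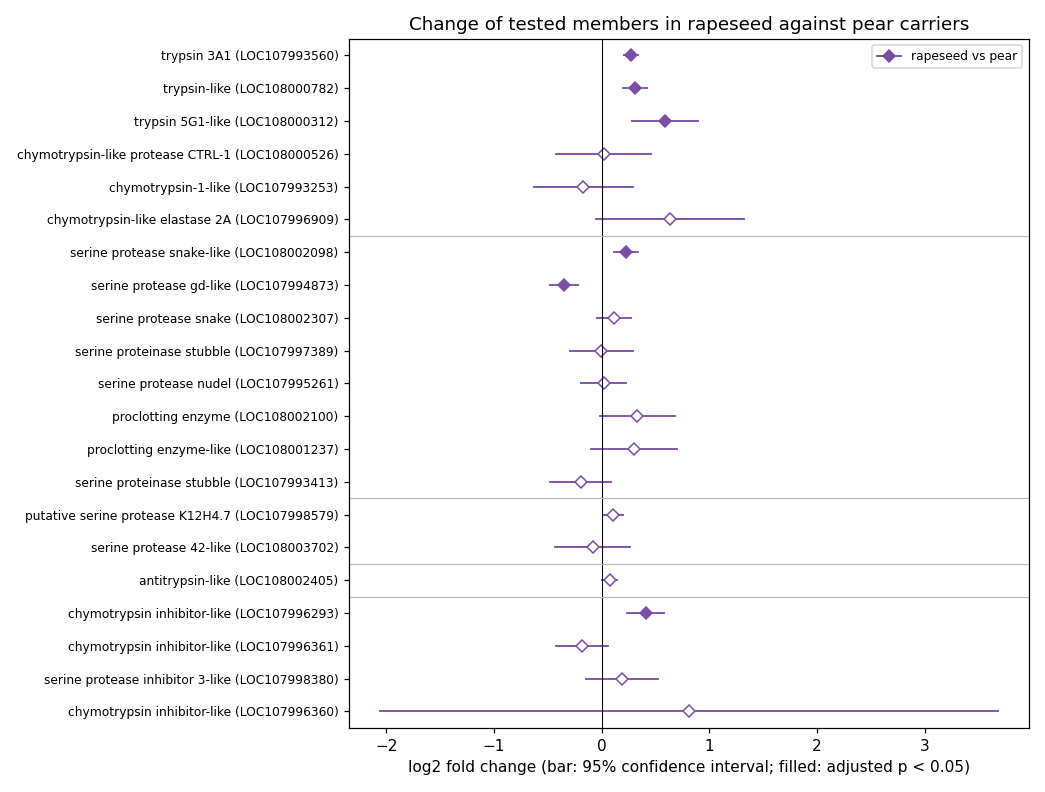
Log2 fold change of the 21 tested genes in rapeseed against pear libraries, with 95% confidence intervals and filled symbols for an adjusted p under 0.05 (edgeR). The 6 called genes lie between -0.35 and 0.59, and gd-like is the only one to the left of 0.

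The lowest adjusted p of the 21 tested genes was that of the chymotrypsin inhibitor-like gene LOC107996293, on the plus strand of scaffold NW_016019075.1 from 923869 to 924699. It had 48.0, 43.8 and 42.5 CPM in rapeseed, 26.7, 35.9 and 38.7 CPM in pear, and 1144, 1076 and 1100 CPM in non-pollen libraries. It was 24.7-fold lower in rapeseed (log2 fold change -4.63, standard error 0.0839, adjusted p = 5.12e-21) and 32.8-fold lower in pear (log2 fold change -5.04, standard error 0.0864, adjusted p = 2.2e-21) than in non-pollen libraries. It was also higher in rapeseed than in pear, without overlap (log2 fold change 0.41, standard error 0.082, adjusted p = 0.00144). It made up 1.36% of the summed CPM of all 40 genes in rapeseed and 1.18% in pear, against 31.8% in non-pollen libraries. The sum over the 40 was 3270 to 3336 CPM in rapeseed, 2813 to 2894 CPM in pear and 3419 to 3589 CPM in non-pollen libraries. Without LOC107996293 the mean sums were 3251, 2819 and 2370 CPM in the rapeseed, pear and non-pollen groups. Scaled by library totals only, the mean sums with it were 3656, 3261 and 2741 CPM, so the order of the full sum depended on the scaling.

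The royal jelly and gland enzyme genes differed between the same groups. Of the 39 genes on the gland list (major royal jelly proteins, alpha-glucosidase, glucose dehydrogenase and alpha-amylase), 34 had counts in all 9 libraries and 0 were at 0 in all. Their share of counts was 0.794% to 0.837% in rapeseed, 0.901% to 1.21% in pear and 37.1% to 37.6% in non-pollen libraries. Of the 25 tested, 8 were higher and 12 lower in rapeseed, and 7 higher and 14 lower in pear. Between the pollen groups the inhibitor was higher in rapeseed while the royal jelly share was lower there. The means of alpha-glucosidase (LOC107993622) had the inhibitor's order, at 1605, 1088 and 25849 CPM in the rapeseed, pear and non-pollen groups. So did those of glucose dehydrogenase-like LOC107997822, at 1060, 909 and 33346 CPM. Alpha-amylase 4N-like (LOC108004028) averaged less in rapeseed than in pear, at 74.0, 83.2 and 3410 CPM. In rapeseed against pear, 11 of the 25 tested gland genes were higher and 4 lower, or 60% called beside 12.9% of all tested genes. The part of gland tissue in the inhibitor's level was not tested. The inhibitor overlaps LOC107996289 and LOC107996290 on the opposite strand. LOC107996289, a trehalose transporter-like gene, had 30687 to 34327 counts in rapeseed, 22117 to 22732 counts in pear and 32163 to 46832 counts in non-pollen libraries, and LOC107996290 had 164 to 403 counts over all libraries. Neither had a gap of the inhibitor's size between pollen and non-pollen libraries in these raw counts. The part of their reads in the inhibitor's level was not tested.

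**Figure D5:**
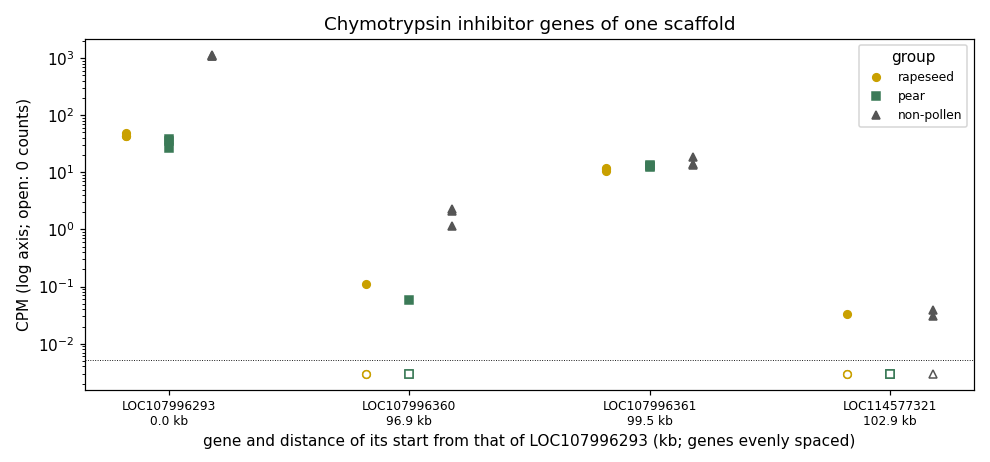
Level of the 4 chymotrypsin inhibitor genes of 1 scaffold in each library, in CPM after TMM scaling on a log axis, with genes evenly spaced and the distance of each start from that of LOC107996293 in kb. LOC107996293 and LOC107996360 are higher in non-pollen libraries, LOC107996361 is at 10.7 to 18.9 CPM throughout and LOC114577321 has at most 2 counts.

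Inhibitor genes on the same scaffold did not share this pattern throughout. LOC107996360, also described as chymotrypsin inhibitor-like, lies 96053 bases beyond LOC107996293 with 3 genes between. It had 0, 6 and 0 counts in rapeseed, 0, 0 and 3 counts in pear, and 75, 108 and 56 counts in non-pollen libraries. Summed over libraries and scaled, this was 50.8-fold lower in rapeseed (95% counting interval 23.0 to 140) and 93.7-fold lower in pear (31.7 to 457) than in non-pollen libraries. These intervals cover counting error only. All rapeseed counts came from replicate 2 and all pear counts from replicate 3. The fitted log2 fold changes of -5.59 and -6.40 moved to -9.54 and -9.55 without these libraries, and are no bounds. Fitted without a filter on low values, the gene was lower in both comparisons (adjusted p = 4.07e-05 and 2.35e-05). LOC107996361 lies 1530 bases beyond it and had 11.5, 10.7 and 12.1 CPM in rapeseed, 13.2, 12.4 and 13.1 CPM in pear, and 18.9, 14.1 and 13.7 CPM in non-pollen libraries. Its log2 fold change was -0.44 in rapeseed (standard error 0.117, adjusted p = 0.00268) and -0.26 in pear (standard error 0.116, adjusted p = 0.0595), and turned to 0.05 and 0.27 under scaling by library totals (adjusted p = 0.699 and 0.037). LOC114577321, described as Chymotrypsin inhibitor, 2396 bases further on, had 5 counts in all libraries together and was not tested.

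Serine protease inhibitor 3-like (LOC107998380), on the minus strand of scaffold NW_016019231.1 from 752259 to 752872, was the only gene of the 21 called higher by at least 2-fold. Its name comes from small locust inhibitors of the pacifastin family. It had 8.44, 6.95 and 7.79 CPM in rapeseed, 6.68, 6.02 and 7.67 CPM in pear, and 2.08, 1.62 and 1.99 CPM in non-pollen libraries, so that all pollen libraries lay above all non-pollen ones. It was 4.1-fold higher in rapeseed (log2 fold change 2.04, standard error 0.177, adjusted p = 2.46e-09) and 3.6-fold higher in pear (log2 fold change 1.85, standard error 0.177, adjusted p = 1.36e-08) than in non-pollen libraries. Rapeseed and pear were not called different (0.19, 95% interval -0.15 to 0.52, adjusted p = 0.525). It overlaps LOC107998379 on the other strand, which had 246 to 328 counts in rapeseed, 200 to 242 counts in pear and 68 to 163 counts in non-pollen libraries. Reads of the pair cannot be told apart if counting ignored the strand.

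The 19 genes that were not tested had at most 163 counts in any library and at most 1.07 FPKM. Of these, 2 had none in any library and 10 had under 30 counts in all. Fitted without a filter on low values, 3 of them were called in rapeseed and 2 in pear against non-pollen libraries. In rapeseed against pear 0 were called. That fit called 46.4%, 43.6% and 8.63% of its 12474 genes in these comparisons. The proclotting enzyme-like gene LOC107997666 had 29, 0 and 16 counts in rapeseed, 12, 28 and 22 counts in pear, and 75, 109 and 57 counts in non-pollen libraries. It was lower in both (log2 fold change -2.80 and -2.20, adjusted p = 0.00176 and 0.00959), as was its tested namesake LOC108001237. Trypsin-1-like LOC107995509 had 8, 0 and 0 counts in rapeseed, 35, 10 and 25 counts in pear, and 33, 31 and 25 counts in non-pollen libraries. It was lower in rapeseed (log2 fold change -3.84, adjusted p = 0.00433). Stubble-like LOC107999804 was lower in rapeseed (-1.31, adjusted p = 0.004). The other K12H4.7 gene, LOC108002956, was called lower in pear (adjusted p = 0.0231), with 0, 14 and 0 counts in rapeseed, 0 counts in all pear libraries, and 24, 19 and 0 counts in non-pollen libraries. Trypsin-7-like LOC108004362 had 24, 10 and 18 counts in rapeseed, 0, 4 and 0 counts in pear and 5, 0 and 0 counts in non-pollen libraries, and was not called.

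Genes listed by description for the Toll and melanization pathways changed in both directions. The list held 29 genes outside the 40, laccases and aromatic-L-amino-acid decarboxylases among them, and 23 were tested. Against non-pollen libraries 11 were higher and 9 lower in rapeseed, and 8 higher and 7 lower in pear. In rapeseed against pear, 3 were higher and 7 lower. This was 87%, 65.2% and 43.5% called, beside 59.3%, 55.7% and 12.9% of all tested genes. The recognition protein beta-1,3-glucan-binding protein 1 (LOC107993481), which triggers the cascades on contact with fungal walls, had the order of the trypsins, with log2 fold changes of 0.53 in rapeseed and 0.25 in pear against non-pollen libraries and 0.28 in rapeseed against pear (adjusted p = 4.09e-12, 6.63e-07 and 1.15e-06). The NF-kappa-B inhibitor cactus-like (LOC107996104), which holds back the Toll pathway's transcription factor, had 0.37, 0.57 and -0.20 in these comparisons (adjusted p = 5.39e-09, 6.17e-12 and 2.61e-04). Laccase-5-like (LOC108001912), a phenol-oxidising enzyme, averaged 1087 CPM in rapeseed, 27.7 CPM in pear and 204 CPM in non-pollen libraries.

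Related proteases and inhibitors that the description rule left out comprised 22 genes, of which 17 were tested. Against non-pollen libraries 8 were higher and 5 lower in rapeseed, and 4 higher and 6 lower in pear. In rapeseed against pear, 4 were higher and 0 lower. This was 76.5%, 58.8% and 23.5% called, beside the same background. Venom serine protease 34-like (LOC107993933) averaged 339 CPM in rapeseed, 11.4 CPM in pear and 75.6 CPM in non-pollen libraries. It was higher in rapeseed (log2 fold change 2.16, adjusted p = 1.49e-18) and lower in pear (-2.73, adjusted p = 3.43e-19) than in non-pollen libraries. Venom protease-like (LOC107999912) averaged 1055, 940 and 720 CPM in the rapeseed, pear and non-pollen groups. This list also holds proteins that are no proteases, such as the coagulation factor deficiency homolog LOC107997547, a cargo receptor partner in human cells, at 72.1, 73.3 and 135 CPM. Of 52 other peptidases, 42 were tested. Against non-pollen libraries 19 were higher and 15 lower in rapeseed, and 18 higher and 16 lower in pear. In rapeseed against pear, 8 were higher and 2 lower. This was 81%, 81% and 23.8% called, beside 59.3%, 55.7% and 12.9% of all tested genes. Among them aminopeptidase N (LOC107993198), which trims peptides from their amino end, averaged 6.12, 11.7 and 479 CPM in the rapeseed, pear and non-pollen groups. Carboxypeptidase Q-like (LOC108003701) averaged 43.5, 39.0 and 221 CPM, and venom dipeptidyl peptidase 4 (LOC107995082) averaged 52.6, 49.1 and 201 CPM in the same groups.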

How the data were processed

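RNA-seq libraries of the proboscis were analysed from 1 deposited table. The deposited values were raw gene counts and FPKM, both made by the authors from paired reads of strand-marked poly(A) RNA. Tools named in the submitters' processing notes, without their steps, are edgeR, DESeq2, StringTie 2.1.6, HISAT2 2.2.1 and cutadapt 1.9. The genome build and the treatment of multi-mapping reads: not given in the sources used here. Groups came from the labels; the study's published text concerns heads of other bees and gave no value.

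Counts were tested with edgeR 4.0.16 in R 4.3.3 (TMM, quasi-likelihood test, 9259 genes that reached 1 FPKM in 3 libraries or more, Benjamini-Hochberg adjustment, common coefficient of variation 7.92%). The fit was also run on simulated counts without the large royal jelly difference between groups, so that run does not test the scaling. Alternatives were other scalings, filters and samples, DESeq2 1.42.0, limma 3.58.1 on log2(FPKM + 1) and log2(FPKM + 0.1), a fold threshold of 1.5 (glmTreat), a replicate block and leaving out each library. Genes and lists were chosen with earlier results of these data known. Genes given in full were, per comparison, up to 6 called genes per direction without overlap, the 3 with the lowest adjusted p per role group and the 5 with the highest FPKM; the rest complete the account of the 40. Of the 40, 38 matched the RefSeq gene table of assembly AcerK_1.0, which served for names only. No sequence table was used here.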

Additional observations from a re-analysis of the deposited data

Results flagged for a closer look

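In 6 of the 21 tested genes the change against non-pollen libraries differed between rapeseed and pear, by the direct test of rapeseed against pear in edgeR's quasi-likelihood fit. The log2 difference was 0.59 for trypsin 5G1-like (LOC108000312), 0.41 for the chymotrypsin inhibitor-like gene LOC107996293, 0.31 for the trypsin-like gene LOC108000782, 0.27 for trypsin 3A1 (LOC107993560), 0.23 for snake-like (LOC108002098) and -0.35 for gd-like (LOC107994873). The groups of 3 did not overlap for any of the 6. Non-overlapping groups were seen for 11 of the 21 genes in this comparison, beside 30.5% of all tested genes. None of the 6 differences was called against a fold of 1.5.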

How the results depend on the processing

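Of 1257 log2 fold changes of the 21 genes under alternatives, 1114 kept their direction and their side of the threshold, 37 passed it anew, 51 no longer passed it, 24 changed sign where at least 1 of both values was called, and 31 changed sign with neither called. Counts of calls moved by over 1.5 times under library totals, limma and a fold threshold. With library totals alone 13 genes were higher in pear, and 12 higher and 3 lower in rapeseed, against non-pollen libraries. Limma on log2(FPKM + 1) and on log2(FPKM + 0.1) both gave 13 higher in pear and 13 higher and 3 lower in rapeseed. In each of these settings LOC108001237, LOC108000312, LOC107996293 and LOC107996360 stayed lower in pear. These settings do not correct library totals for differences in composition. Among all tested genes they gave 39.9%, 42.5% and 43% of calls as higher in rapeseed against pear, where TMM gave 61.6%. Single calls moved with DESeq2 (LOC108002307 gained in rapeseed), with no filter (LOC107996909 lost in pear), with only the groups compared (LOC108002405 lost in pear) and without the gland genes (LOC107996361 gained and LOC108002405 lost in pear). Against a fold of 1.5 (glmTreat), 5 genes were called in pear (1 higher), 6 in rapeseed (3 higher, 3 lower) and 0 in rapeseed against pear (0 higher, 0 lower). This stood beside 8.74%, 10.8% and 0.67% of all tested genes. LOC107996360, which passed the filter only through the non-pollen group, is among the genes called in pear and in rapeseed.

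Log2 fold changes that turned, in the order library totals, FPKM + 1 and FPKM + 0.1, were in pear 0.50, 0.33 and 0.48 for LOC108002100, 0.27, 0.28 and 0.29 for LOC107996361, and 0.035, 0.045 and 0.046 for LOC107998579. In rapeseed they were 0.26, 0.26 and 0.27 for LOC107994873, 0.043, 0.047 and 0.058 for LOC108000312, 0.051, 0.064 and 0.067 for LOC107996361, 0.10, 0.10 and 0.11 for LOC107998579, and 0.081, 0.054 and 0.082 for LOC108003702.

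Without 1 library at a time, 526 of 567 log2 fold changes kept direction and side. The counts ranged from 5 to 8 higher and 5 to 6 lower in pear, from 5 to 7 higher and 6 to 8 lower in rapeseed, and from 4 to 5 higher and 1 lower in rapeseed against pear. Genes called in opposite directions numbered 0 to 1, the 1 being gd-like without pear replicate 1. The replicate block changed no call of the 21 genes (13, 14 and 6 called in pear, rapeseed and rapeseed against pear). Same-numbered libraries correlated between -0.05 and 0.03 in their deviations from group means, and for 0 of 9 libraries was the best match one of the same number, so the numbers do not pair the libraries. Depth limits what can be seen of the 10 genes with under 30 counts in all.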
